A study of Mus musculus with 6 samples.

Results

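The oligoadenylate synthetase family includes enzymes that sense double-stranded RNA. This section follows the transcripts of the family in mouse cancer-associated fibroblasts treated with a DNA methylation inhibitor. Members were taken by name: every probe of the deposited intensity table whose target name was OAS1A, OAS1B, OAS1G, OAS2, OAS3, OASL1 or OASL2. That gave 16 probes for 7 genes (Oas1a, Oas1b, Oas1g, Oas2, Oas3, Oasl1 and Oasl2), out of 45281 probes on the array. The cells came from a short-term explant of one pancreatic carcinoma of a KPC-Brca1 mouse, a genetic model of pancreatic cancer whose alleles and age the labels do not spell out. In the treated group, 3 plates received decitabine (5-aza-dC, here DAC) at 2 micromolar for 48 hours. In the control group, 3 plates of the same culture stayed untreated, and the labels name no vehicle. Cells insert this nucleoside into new DNA, where it captures the enzymes that methylate cytosine.

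When an oligoadenylate synthetase binds double-stranded RNA, it joins ATP into short chains of adenosines linked 2′ to 5′, called 2-5A. These chains set off the cutting of RNA in the cell, which slows viral growth and can kill the cell. Dedicated enzymes break 2-5A down again, among them Pde12, Akap7 and Enpp1. Most genes of the family are classical targets of type I interferon, whose signal is carried to the nucleus by a complex that includes Stat2 and Irf9. This complex binds the interferon-stimulated response element (ISRE) in target promoters. In the mouse, Oas1a and Oas1g encode active synthetases of the small form, whereas Oas1b is best known as the flavivirus resistance gene and makes no 2-5A. Oas2 and Oas3 are the larger forms. Oasl1 and Oasl2 carry ubiquitin-like domains at their ends, and mouse Oasl1 is known for holding back translation of Irf7.

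The promoter windows were searched for the exact letters of an ISRE core and compared between copies. RefSeq windows of the assembly GRCm38.p6, from 250 bases before to 50 bases after the annotated start, were found for 5 of the 7 members (Oas1a, Oas1g, Oas3, Oasl1 and Oasl2). The letters searched were GAAA, any 2 bases, then GAAA, on both strands, the core of the ISRE, which 1131 of 32851 windows held (3.44%). Matches that overlap each other were joined and are in capitals. Oas1g (chr5:120887564-120887863, minus strand) and Oas1a (chr5:120907476-120907775, minus strand) are shown because they carry the same element, Oas3 (chr5:120777610-120777909, minus strand) because it has a single core, and Oasl2 (chr5:114896684-114896983, plus strand) because it has none. Oas1c (chr5:120812465-120812764, minus strand), a relative within the same gene cluster, is shown because its window holds the element of Oas1g on the opposite strand.
Oas1g: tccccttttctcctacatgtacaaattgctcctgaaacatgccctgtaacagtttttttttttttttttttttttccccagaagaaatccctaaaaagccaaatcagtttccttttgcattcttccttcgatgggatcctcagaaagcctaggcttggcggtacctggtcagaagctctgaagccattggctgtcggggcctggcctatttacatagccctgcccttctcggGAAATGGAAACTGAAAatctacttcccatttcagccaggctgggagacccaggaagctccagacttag
Oas1a: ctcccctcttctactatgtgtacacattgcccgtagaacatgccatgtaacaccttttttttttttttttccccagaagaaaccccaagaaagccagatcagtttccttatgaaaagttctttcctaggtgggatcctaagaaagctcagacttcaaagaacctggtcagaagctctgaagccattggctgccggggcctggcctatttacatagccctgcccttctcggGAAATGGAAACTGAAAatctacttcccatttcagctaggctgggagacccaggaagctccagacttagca
Oas3: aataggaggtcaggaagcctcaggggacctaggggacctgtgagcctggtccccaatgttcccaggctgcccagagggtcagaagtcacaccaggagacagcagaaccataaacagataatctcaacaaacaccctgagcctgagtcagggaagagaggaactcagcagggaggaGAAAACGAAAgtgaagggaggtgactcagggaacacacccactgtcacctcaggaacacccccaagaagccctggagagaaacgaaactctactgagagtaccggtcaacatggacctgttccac
Oasl2: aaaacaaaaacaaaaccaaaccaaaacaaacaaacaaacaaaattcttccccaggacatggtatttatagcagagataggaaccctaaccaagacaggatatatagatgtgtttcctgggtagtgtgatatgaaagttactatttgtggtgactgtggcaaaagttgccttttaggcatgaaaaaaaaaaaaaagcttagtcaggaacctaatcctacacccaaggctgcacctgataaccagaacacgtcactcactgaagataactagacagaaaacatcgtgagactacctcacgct
Oas1c: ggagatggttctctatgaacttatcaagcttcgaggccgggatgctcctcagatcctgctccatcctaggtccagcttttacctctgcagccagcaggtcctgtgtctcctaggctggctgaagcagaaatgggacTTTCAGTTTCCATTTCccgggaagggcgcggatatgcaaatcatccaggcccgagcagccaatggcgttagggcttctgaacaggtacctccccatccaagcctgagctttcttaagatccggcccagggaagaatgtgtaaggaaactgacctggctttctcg
In Oas1g and Oas1a, a pair of overlapping cores formed the 16-base run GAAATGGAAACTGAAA, which lay 18 to 3 bases before the start of Oas1g and 20 to 5 bases before that of Oas1a. The windows of these 2 genes were identical at 261 of 306 aligned columns (85.3%), whereas Oas1g matched the windows of Oas3, Oasl1 and Oasl2 at 42.0% to 45.3%. The 16-base run occurred in 7 of the 32851 windows, which belonged to 5 genes: Oas1a, Oas1g, Oas1c, Apol9a and Apol9b. The single core of Oas3, GAAAACGAAA, lay 75 to 66 bases before its start. Oasl1 and Oasl2 held no match in this window, and variants of these letters were not searched. The GAS motif of interferon gamma signalling, TTCNNNGAA, was present once in Oas1a and in none of the other 4 member windows, against 8.30% of all windows. CpG dinucleotides numbered 3 in Oas1a, 4 in Oas1g, 3 in Oas3, 8 in Oasl1 and 3 in Oasl2, against a median of 7 over all windows. DNA methylation was not measured.

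With DAC, transcripts of Oas2, Oas1g, Oasl2, Oasl1 and Oas1b rose, and each DAC plate read higher than every untreated plate. Fitted rises were 6.50-fold for Oas2, 5.12-fold for the brightest probe of Oas1g, 5.10-fold for that of Oasl2, 3.10-fold for that of Oasl1 and at least 1.95-fold for that of Oas1b. Oas3 and Oas1a stayed too close to background for the test. A probe was tested when its detection p, its rank among negative controls, was under 0.01 on at least 3 of the 6 arrays, and 10 of the 16 probes met this. All 10 had an adjusted p under 0.05 (limma, Benjamini-Hochberg over all 16883 probes tested) and were higher with DAC, and 0 were lower, against 13.1% of all tested probes that were called higher. Nothing is read from that count, because 4 of the 10 passed the detection filter through the DAC arrays (3 were detected on no untreated array and the fourth on 1). The other 6 probes, of Oas1g, Oasl1 and Oasl2, were detected on all 6 arrays, and all 6 were called higher. When only probes detected on all 6 arrays were tested, 1957 of all 15045 were called higher.

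Without any filter, the 3 DAC values lay above the 3 untreated values for 13 of the 16 probes on the normalized log2 scale, against 11.6% of all 45281 probes. No member probe had its DAC values below all untreated values, and the groups overlapped for 3. The median log2 change (DAC minus untreated) over all 16 member probes was 1.17, against −0.0017 over all probes. Of the 64 tested probes with a log2 change of at least 2 (0.379% of those tested), 5 were member probes, 1 of Oas2 and 2 each of Oas1g and Oasl2. Such counts depend on the background step: they were 2 of 31 without background correction and 3 of 33 with an offset of 50. RNA was taken from whole plates, so a change in the number of cells of a kind and a change in RNA per cell cannot be told apart. Of 20 leukocyte markers on the array 9 were tested, and 7 were higher and 0 lower, against 14.1% of all 11538 genes called higher. Their summed raw intensity was 2006 to 2206.3 with DAC and 1631.7 to 1702.5 untreated. Those that rose were Laptm5 (2.29-fold), Lyz1 (1.72-fold), Lyz2 (1.61-fold), Coro1a (1.55-fold), Cd68 (1.29-fold), Cd53 and Csf1r. Every DAC array and none of the untreated arrays detected Cd53 and Csf1r, so both passed the filter through the DAC arrays alone. Cd14 (log2 change −0.09) and Cd3e (0.33) were tested and not called. Ptprc, Itgam, Adgre1, Tyrobp and Fcer1g were among the 11 detected on no array, and the part of these cells in the results was not tested. All plates came from a single explant, and p-values here reflect plate-to-plate spread alone.

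**Figure D1:**
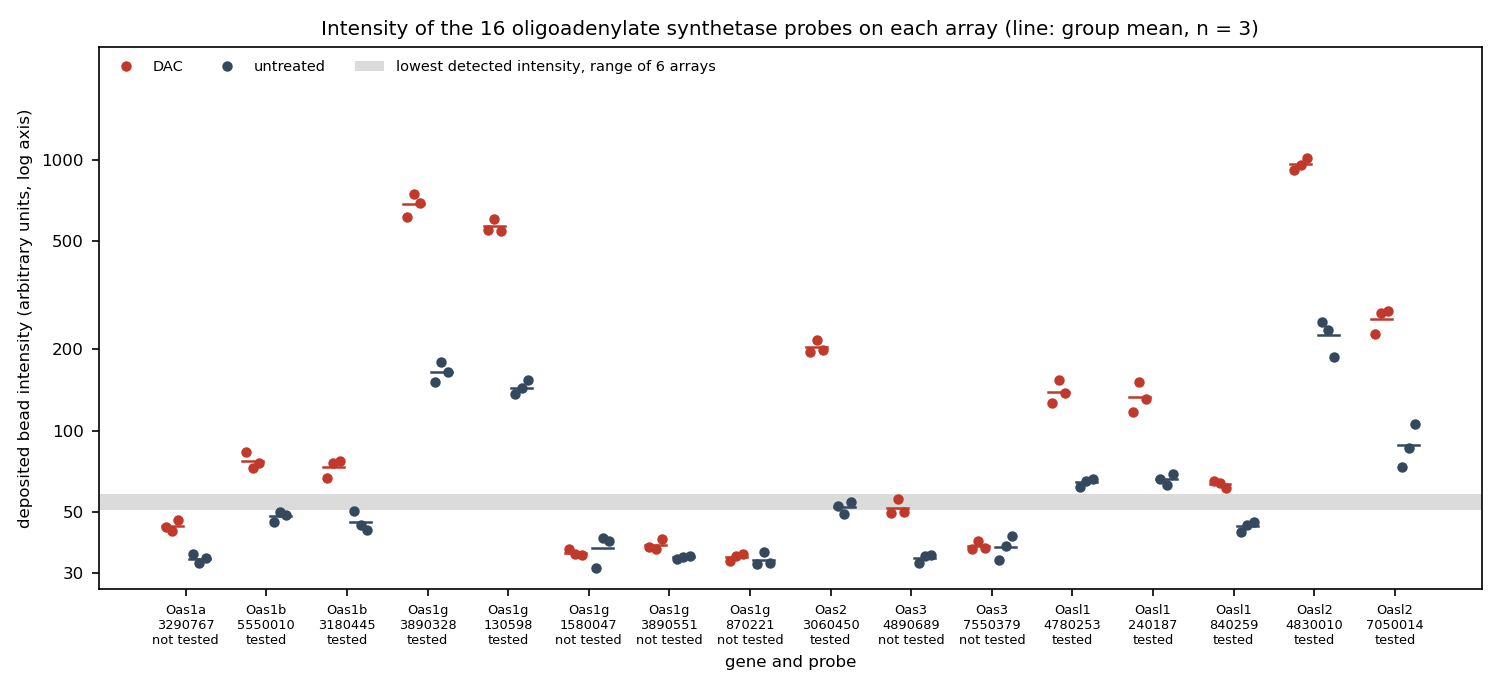
Deposited bead intensity (arbitrary units, log axis) of the 16 probes on the 3 DAC arrays (red) and the 3 untreated arrays (blue), with a line at each group mean. The grey band spans the lowest intensity that counted as detected, 50.9 to 58.3 over the 6 arrays. The DAC points of Oas2, Oasl1, Oasl2, Oas1b and the 2 bright Oas1g probes lie above all their untreated points, and 3 Oas1g probes, the Oas1a probe and 1 Oas3 probe stay below the band.

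Oas2, the middle-sized synthetase, was read by 1 probe. The probe (3060450) read 195.7, 216.4 and 198.1 on the DAC arrays and 53, 49.4 and 54.8 on the untreated arrays. The DAC readings were far apart from the untreated ones, which sat at the edge of detection and passed it on 1 of 3 arrays. After normalization the log2 intensity was 7.59 ± 0.07 with DAC and 4.89 ± 0.13 untreated (SD, n = 3 each). The log2 change was 2.70 ± 0.10 (SE; 95% interval 2.48 to 2.93; adjusted p = 3.63e-10), the 23rd highest of all tested probes. The untreated level lay near background, and the log2 change was 1.78 without background correction and 1.83 with an offset of 50. In these settings it lay below the brightest probes of Oas1g (2.07 and 2.10) and Oasl2 (2.14 and 2.16). With the mean background subtracted and no offset, the ratio of group means was 11.4 for Oas2, above those of these probes (5.08 and 4.94).

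Oas1g, a small synthetase, was read by 5 probes, and 2 of them were bright. Probe 3890328 read 615.9, 746.3 and 690.1 on the DAC arrays against 151.4, 179.5 and 164.8 on the untreated arrays. Probe 130598 read 549.6, 605.4 and 546.9 with DAC against 136.3, 143.2 and 153.3 untreated. Every DAC reading of either probe was more than 3 times the highest untreated one. For probe 3890328 the log2 intensity was 9.42 ± 0.04 with DAC and 7.06 ± 0.18 untreated, a log2 change of 2.36 ± 0.11 (5.12-fold, adjusted p = 2.26e-09). Probe 130598 gave a log2 change of 2.31 ± 0.10 (4.97-fold, adjusted p = 1.58e-09). The 2 changes differed by 0.04 ± 0.09 on the log2 scale (exact two-sided permutation test over the 6 arrays, p = 0.8). The remaining probes of this target read 34.8 to 36.7 (1580047), 36.6 to 39.8 (3890551) and 33 to 35.1 (870221) with DAC, against 31.2 to 40.2, 33.7 to 34.6 and 32.2 to 35.7 untreated. These 3 probes were detected on no array, while the mean background lay at 36.3 to 39.1. The files give no probe sequences, so which part of the transcript each probe reads is unknown.

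Oas1b, the flavivirus resistance gene of the mouse, rose on both of its probes. Probe 5550010 read 83.3, 73 and 76.1 with DAC against 46.2, 50 and 49 untreated. Probe 3180445 read 66.9, 76 and 77.4 with DAC against 50.5, 44.9 and 43.1 untreated. All 6 DAC readings were above detection and none of the 6 untreated readings was, so the folds are bounds. The rises were at least 1.95-fold (log2 5.90 ± 0.22 with DAC and 4.72 ± 0.16 untreated, adjusted p = 1.09e-05) and at least 1.80-fold (5.79 ± 0.08 and 4.62 ± 0.09, adjusted p = 1.37e-06). Each bound sets the DAC mean against the lowest detected level of the untreated arrays. It holds for this processing and carries no sampling error. Without background correction the fitted log2 changes of the 2 probes were 0.62 and 0.60. In the RefSeq table this gene is annotated as a transcribed pseudogene, and its name OAS1B is also listed there as an older name of Oas1g.

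For Oas1a, the synthetase whose promoter window was nearest to that of Oas1g, the single probe (3290767) read 44.3, 42.8 and 46.8 with DAC against 35, 32.4 and 33.8 untreated. The groups did not overlap, but the probe was detected on no array. With the filter removed, its log2 change was 0.39 (adjusted p = 0.0133). Of the 2 members with the same 16-base run, Oas1g was called and Oas1a was not tested. Since Oas1g, Oas1b and Oas1a are related copies and no probe sequences are given, signal of these targets may be shared between them. Which copy changed is therefore uncertain.

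Oas3, the largest synthetase, had a dim probe that differed between the groups and one that did not. Probe 4890689 read 49.9, 56.1 and 50.3 with DAC against 32.6, 34.5 and 34.7 untreated. Its detection p-values with DAC were 0.0128, 0.00748 and 0.0214, so it passed on 1 array and was not tested. Under a looser detection limit of 0.05 its log2 change was 0.76 (adjusted p = 8.35e-05). Probe 7550379 read 36.5, 39.3 and 36.8 with DAC against 33.5, 37.5 and 40.8 untreated, with overlapping groups at background.

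Oasl2, a synthetase-like gene with ubiquitin-like domains, rose on 2 probes. The brighter one (4830010) read 911.3, 958 and 1009.4 with DAC against 251.7, 234.4 and 187.6 untreated. The dimmer one (7050014) read 227.9, 271.1 and 276 with DAC against 73.7, 86.7 and 106.1 untreated. In both, the lowest DAC reading was more than 2 times the highest untreated one. The log2 intensity of the brighter probe was 9.92 ± 0.07 with DAC and 7.57 ± 0.24 untreated, a log2 change of 2.35 ± 0.12 (5.10-fold, adjusted p = 7.11e-09). That of the dimmer probe was 7.96 ± 0.07 with DAC and 5.95 ± 0.38 untreated, a log2 change of 2.01 ± 0.15 (4.04-fold, adjusted p = 3.35e-07). The untreated plates carried most of the spread, and the probes ordered them oppositely: untreated replicate 1 was highest on the brighter probe and lowest on the dimmer one. The changes of the 2 probes differed by 0.34 ± 0.35 (exact permutation test, p = 0.5). OASL2 is also listed in the RefSeq table as an older name of Oas1c.

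Oasl1, the relative that restrains Irf7 translation in mouse cells, rose on all 3 of its probes. Probe 4780253 read 126.2, 154.1 and 137.8 with DAC against 62.2, 65.2 and 66.1 untreated. Probe 240187 read 117.5, 150.9 and 131 with DAC against 66.6, 63.3 and 69.1 untreated. The dimmest probe, 840259, read 65.3, 63.9 and 61.4 with DAC against 42.2, 45 and 46.2 untreated. No DAC reading of any of the 3 overlapped the untreated ones, and the untreated readings of the dimmest were not detected. The log2 changes were 1.63 ± 0.11 (3.10-fold, adjusted p = 7.48e-08) for probe 4780253 and 1.49 ± 0.11 (2.81-fold, adjusted p = 1.72e-07) for probe 240187. Probe 840259 rose at least 1.47-fold (adjusted p = 2.94e-05), with a fitted log2 change of 0.93 ± 0.11. Being a bound, this rise cannot be ranked against those of the other probes. The changes of the 2 brighter probes differed by 0.14 ± 0.07 (exact permutation test, p = 0.2). The sizes moved with the background step: without it the change of probe 4780253 was 1.07, and with an offset of 50 that of probe 840259 was 0.46.

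**Figure D2:**
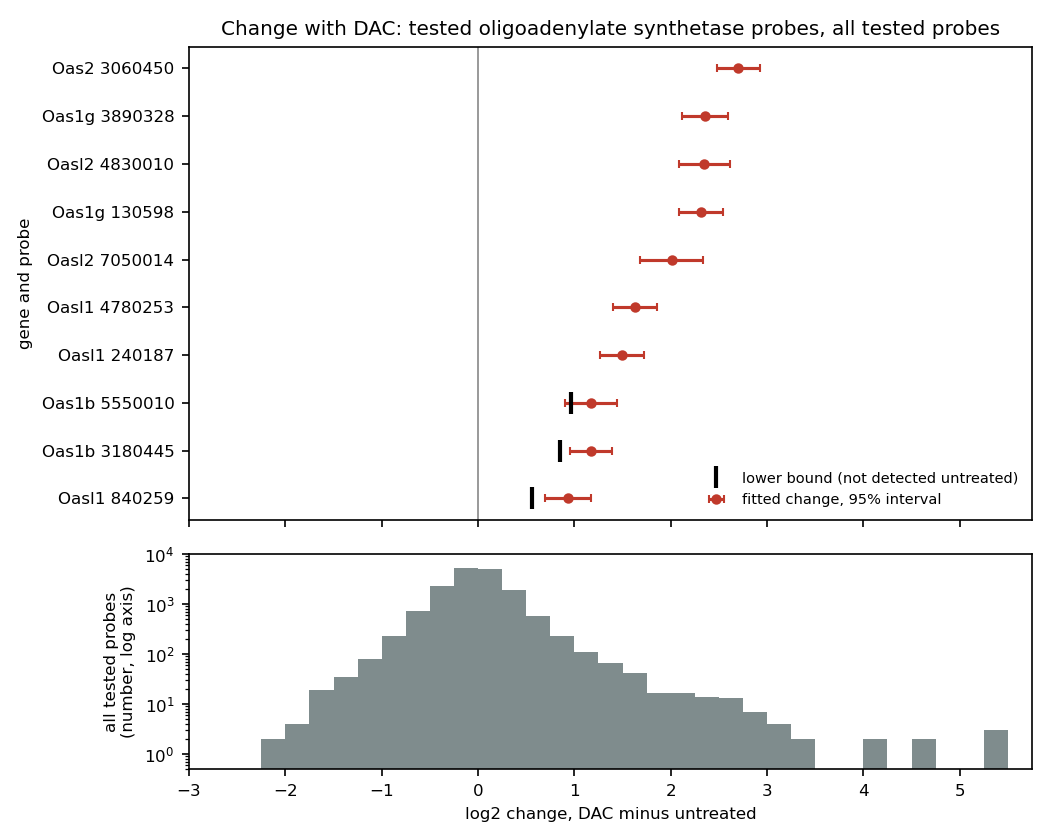
Upper panel: fitted log2 change, DAC minus untreated, of the 10 tested member probes with 95% intervals, and the lower bound for the 3 probes that no untreated array detected. Lower panel: number of all 16883 tested probes (log axis) by log2 change. The members span 0.93 to 2.70, while most probes lie around the median of −0.01.

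The order of the changes was not settled for Oas2. As fitted, the log2 change of Oas2 lay 0.35 ± 0.14 above that of Oas1g, but it lay below it without background correction or with an offset of 50. The log2 change of Oasl2 lay 0.72 ± 0.21 above that of Oasl1 (brightest probes). Values per array did not overlap in either comparison, and each reached the smallest possible exact permutation p of 0.1 (0.2 after adjustment over 10 comparisons), so neither passed 0.05. Oas1b, whose rise is a bound, was not ranked. With the mean background of each array subtracted and no offset, the ratio of group means was 11.4 for Oas2. It was 5.08 for Oas1g and 4.94 for Oasl2 (brightest probes). The untreated Oas2 readings behind that ratio lay only 14.6 ± 2.9 (SD) above background. Oas1g and Oasl2 differed by 0.01 ± 0.19 with overlapping values (exact permutation p = 1). Over the 16 other ways of processing, every tested member probe that could be fitted was higher with DAC and kept an adjusted p under 0.05.

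The spread between plates can be set beside the error over beads. Each value averaged 22 to 71 beads, and the standard error over beads was 2.99% to 7.49% of the reading. Between plates, the raw readings of the 10 tested probes varied by 3.11% to 12.6% (coefficient of variation) with DAC and by 3.17% to 18.4% untreated, the highest being the dimmer Oasl2 probe. Averaged over the 5 genes and centred, the members' log2 level was 1.08, 1.00 and 0.98 on DAC plates 1 to 3 and −1.11, −0.94 and −1.02 on untreated plates 1 to 3. No plate of either group stood apart on this average.

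Around the synthetases, most of the 2-5A pathway was not detected or did not pass the test. Of the 10 listed genes, 5 were tested, 1 was called higher and 0 lower, with a median log2 change of 0.21, against 14.1% of all 11538 genes called higher, 13.9% called lower and a median of 0.0026. Enpp1, an ectoenzyme that also cleaves 2-5A, was the one that rose. It read 166.3, 189.2 and 188.8 with DAC against 133.3, 117.5 and 137.1 untreated, a log2 change of 0.75 ± 0.10 (1.68-fold, adjusted p = 7.85e-05). Its second probe gave 0.76 ± 0.11 (adjusted p = 1.13e-04). The 2-5A phosphodiesterases Pde12 (log2 change 0.21, adjusted p = 0.198) and Akap7 (0.11, adjusted p = 0.503) and the ATP-binding cassette gene Abce1 (0.08, adjusted p = 0.620) did not pass.

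The other small synthetase genes of the cluster read at or below the edge of detection. Oas1c, whose window holds the 16-base run on the opposite strand, read 51.3, 56.8 and 50 with DAC against 50.4, 51.9 and 49.6 untreated. These readings overlapped at the edge of detection, and the log2 change was 0.22 ± 0.11 (adjusted p = 0.159). Oas1d, Oas1e, Oas1f and Oas1h were detected on no array. Their brightest probes read at most 48.7 with DAC and at most 46 untreated. Apol9b, an apolipoprotein L gene outside the family that shares the 16-base run, rose 6.55-fold (log2 change 2.71 ± 0.12, adjusted p = 1.45e-09), and its copy Apol9a was not analysed here. A run in a window describes its letters and not a site in use.

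**Figure D3:**
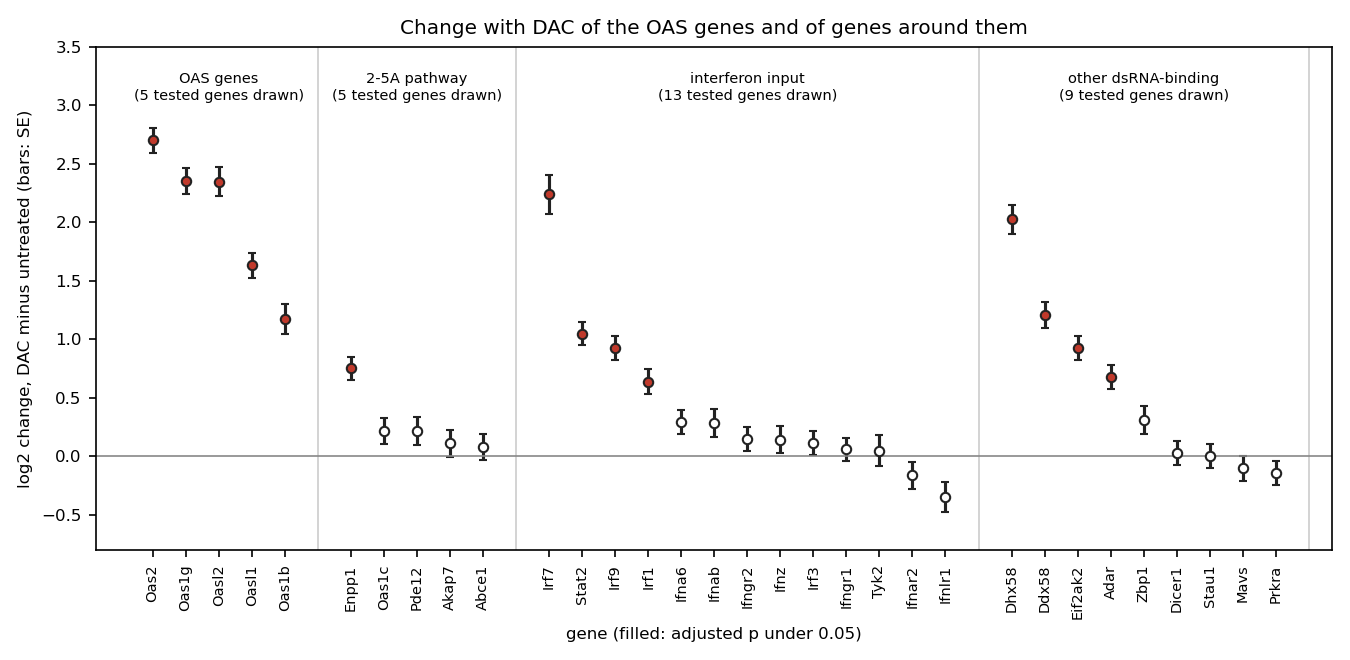
Log2 change, DAC minus untreated, of tested genes (brightest tested probe, bars: SE) among the oligoadenylate synthetases, other genes of the 2-5A pathway, the interferon input and other proteins that bind double-stranded RNA. Filled points have an adjusted p under 0.05. Filled are all 5 tested synthetase genes and 1 of 5 tested pathway genes (Enpp1), against 14.1% of all 11538 genes called higher. Nothing is read from the synthetase count, because Oas1b and Oas2 passed the detection filter through the DAC arrays (Oas2 with 1 untreated array). Not every tested gene of the last 2 lists is drawn.

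The interferon input was measured as ligands, receptors and signal carriers, 31 genes in all. Of these, 14 were tested, 5 were higher and 0 lower with DAC, with a median log2 change of 0.22. Of all 11538 genes, 14.1% were higher and 13.9% lower, with a median of 0.0026. At an unadjusted p (limma) under 0.05, 7 genes of the list were higher and 1 lower. The share of all genes at that unadjusted limit was not counted. Genes for transcription factors were among the 5 called higher. Irf7, the amplifier of interferon genes, read 194.3 to 261.5 with DAC against 58.5 to 81.8 untreated, a log2 change of 2.24 ± 0.16 (adjusted p = 2.31e-07). Stat2 and Irf9, parts of the complex that binds the ISRE, changed by log2 1.05 ± 0.10 (adjusted p = 3.54e-06) and 0.93 ± 0.10 (adjusted p = 1.09e-05). Irf1, a further activator, changed by 0.64 ± 0.11 (adjusted p = 5.72e-04).

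No interferon ligand was called. Ifnb1, interferon beta, read 33.5 to 37.8 with DAC against 32.1 to 38.1 untreated and was detected on no array. Among the ligands, Ifna6 (log2 change 0.29, adjusted p = 0.0508), Ifnab (0.29, adjusted p = 0.0941) and Ifnz (0.14, adjusted p = 0.376) were detected on all 6 arrays. Ifna6 stood at the threshold and passed in 4 of 16 alternatives (adjusted p = 0.0311 to 0.0488). Interferon alpha genes are near-identical copies, so these probes may read several of them. Of the receptors, Ifnar1 was not detected, and Ifnar2 had a log2 change of −0.16 (adjusted p = 0.315). Of the 30 listed genes with a probe, 16 were below detection everywhere.

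Of 12 other genes for proteins that bind double-stranded RNA or relay its signal, 10 were tested. Among these 4 were higher and 0 lower, with a median log2 change of 0.17. Of all 11538 genes, 14.1% were called higher and 13.9% lower. At an unadjusted p (limma) under 0.05, 5 genes of the list were higher and 0 lower, and the share of all genes at that limit was not counted. The 4 genes of the list called higher were Dhx58 and Ddx58, RIG-I-like receptors (log2 2.03 ± 0.12, adjusted p = 4.32e-08, and 1.21 ± 0.11, adjusted p = 2.67e-06), the kinase gene Eif2ak2 (0.93 ± 0.10, adjusted p = 1.41e-05) and the RNA-editing enzyme gene Adar (0.68 ± 0.10, adjusted p = 2.35e-04). Eif2ak2 encodes PKR, the other classical enzyme that double-stranded RNA switches on. Dicer1, Stau1, Prkra, Mavs and Zbp1 had log2 changes between −0.14 and 0.31 and did not pass, and Ifih1 and Tlr3 were detected on no array.

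**Figure D4:**
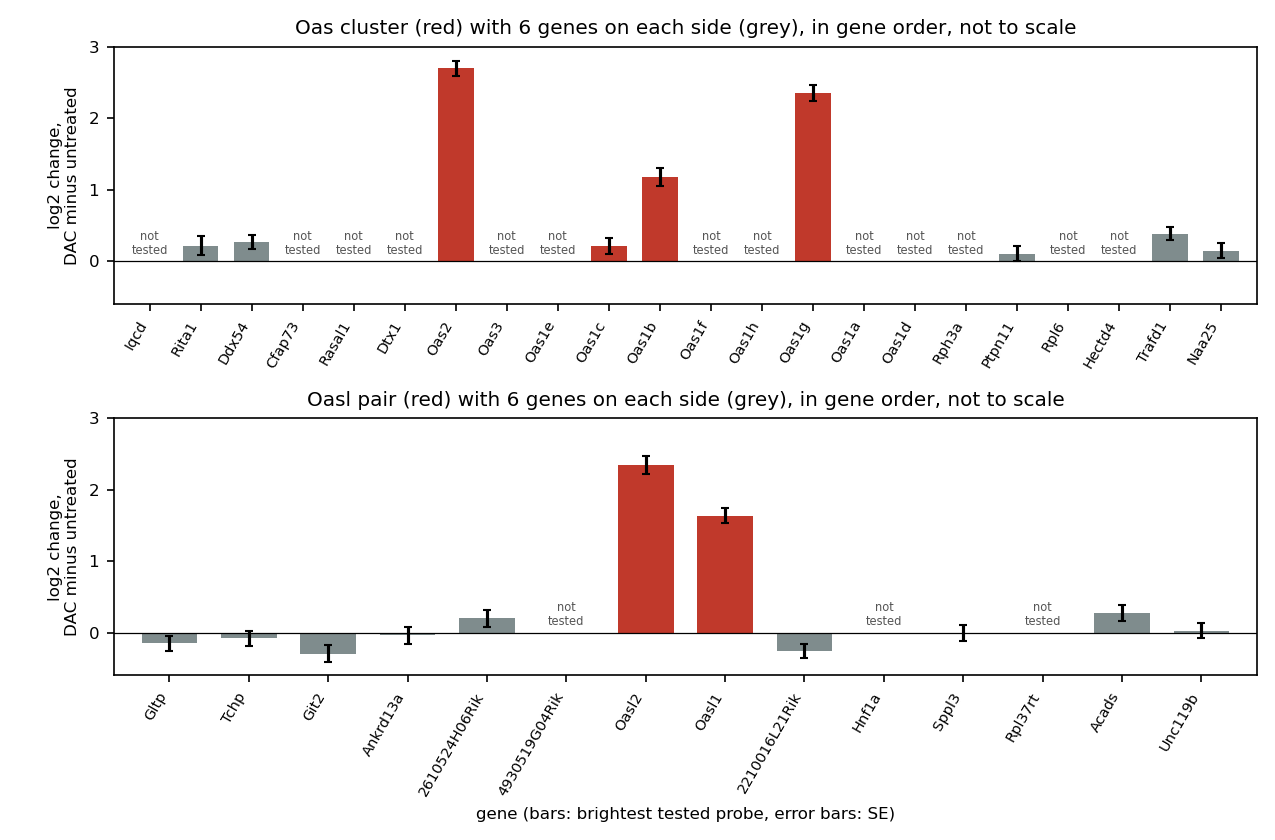
Log2 change, DAC minus untreated, in gene order (not to scale) across the Oas cluster and the Oasl pair (red) and 6 neighbouring genes on each side (grey). Bars show the brightest tested probe with its SE. Oas2, Oas1b and Oas1g reach fitted changes of 1.17 to 2.70 and Oasl2 and Oasl1 reach 2.35 and 1.63, while flanking genes stay between −0.29 and 0.39.

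All members lie on chromosome 5, in 2 places. The Oas cluster held 10 genes in the order Oas2, Oas3, Oas1e, Oas1c, Oas1b, Oas1f, Oas1h, Oas1g, Oas1a and Oas1d, of which 4 were tested and 3 were higher. Oas2, Oas1b and Oas1g, which rose, were thus separated by relatives that were not tested or did not pass. Of the 12 protein-coding genes that flank the cluster, 6 on each side, 5 were tested and had log2 changes of 0.11 to 0.39. Trafd1 alone passed (1.31-fold, adjusted p = 0.00761), against 14.1% of all 11538 genes called higher. At an unadjusted p (limma) under 0.05, 2 of the 5 were higher and 0 lower. Oasl2 and Oasl1 lie side by side elsewhere on the chromosome. Their flanking genes, 9 of 12 tested, changed by −0.29 to 0.28 on the log2 scale, and 0 of 9 passed (limma). At an unadjusted p under 0.05, 1 was higher and 2 were lower. The share of all genes at that unadjusted limit was not counted, so nothing is read from the unadjusted counts of either place.

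The genes most like the synthetases across the 6 arrays were sought among 189 other genes with a log2 change of at least 1. Pearson's r with the mean of the 5 tested members was highest for Ube2l6 (0.9995, 2.19-fold higher with DAC), Parp12 (0.9995, 2.25-fold) and Sp100 (0.9992, 2.58-fold). Gpat2, Gm4951 and Dppa4 followed at 0.9991, 0.9986 and 0.9986. All 189 lay at 0.926 or more with a median of 0.988, as all were picked for a rise with DAC and share these arrays, so the order is a description only.

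All 6 arrays were alike in quality: 16205 to 16528 probes were detected with DAC and 16254 to 17180 untreated, and log2 values correlated at 0.993 to 0.996 within groups and at 0.974 to 0.980 between them. The 75th percentile of raw intensity was 96.6 to 106 with DAC and 110.9 to 116.9 untreated. Of all calls, 47.5% were rises, a share that was 23.1% without normalization between arrays and 59.9% with 75th percentile scaling. Without that normalization the median log2 change of all probes was −0.13, and the 10 member probes were still called higher. Of 13 fibroblast markers 11 were tested (1 higher, S100a4, and 1 lower, Lum), Postn was detected on no array and Fap on 1, and their summed raw intensity was 51813.7 to 59086.1 with DAC and 56824.6 to 58411.5 untreated. Of 9 epithelial markers 5 were tested (Krt7 higher and Krt19 lower), Epcam and Cdh1 were detected on no array, and the sums were 1466 to 1858.7 with DAC and 1846.1 to 1989 untreated. None of 7 endothelial markers was detected.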

How the data were processed

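Expression data of 6 arrays were taken from one deposited table of Illumina bead arrays. Per the labels, Trizol was used for total RNA and an Ambion MessageAmp kit for biotinylated cRNA. Per the file headers, the deposited table gives for each probe and array a mean bead intensity, its standard error as a bead signal, a detection p-value and a bead number (another measure, in whole numbers). Positive values and unequal array medians show that the deposited intensity was not normalized or background-subtracted. The scanner software is not given in the sources used here. A second deposited table, whose identifiers the first does not hold, was not used.

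The normexp correction of limma 3.58.1 (R 4.3.3) took its background from the detection p-values, followed by an offset of 16, log2 transformation and quantile normalization. The filter kept 16883 of 45281 probes (detection p under 0.01, 3 or more of 6 arrays). DAC and untreated arrays, 3 each, were compared by limma's lmFit and eBayes with no block, with Benjamini-Hochberg adjustment over all kept probes and a threshold of 0.05. For genes, the brightest kept probe stands for the gene. Where no array of a group detected a probe, the fold is a bound against the lowest detected signal or the probe's own, whichever was higher. Such a bound is a point estimate under this processing, without sampling error. Differences between 2 changes were tested by exact two-sided permutation over the arrays (smallest possible p 0.1). The fit was tested on simulated intensities with changes put on bright probes only, so that test does not cover dim members such as Oas2, Oas1b and Oasl1. Each array carries its own number of beads per probe (median 43 to 44, fewest 10), and 3 arrays a group limit the precision.

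Every member probe is named. In the other lists the genes of the 2-5A pathway are named, up to 6 called genes of the interferon and double-stranded RNA lists, and the 6 genes most like the members; some listed genes are not reported here. Uncalled or undetected genes of the latter lists, flanking genes, cell markers and Apol9b were named after their values were seen. The members and lists were chosen with earlier results of these data known. Names were updated through RefSeq tables of GRCm38.p6 (27760 probes by symbol, 7994 by synonym, 9527 kept as given), which also gave gene order. The files name no build, so no coordinates are given for probes. Promoter windows come from RefSeq, and their identity from global alignment (Biopython 1.88). Background correction, normalization, filter, variance model, array weights, a replicate block, single left-out arrays and the value per gene were varied, 16 alternatives for each probe.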

Additional observations from a re-analysis of the deposited data

How the results depend on the processing

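Over 16 alternatives, the 10 tested probes gave 147 values, and 147 had the direction and the side of the threshold reported. The size moved most with the background step: without background correction the log2 change was 1.78 for Oas2 (2.70 as reported), 0.62 and 0.60 for Oas1b (1.17 each) and 1.07 for the brightest Oasl1 probe (1.63), and with an offset of 50 it was 0.46 for the dimmest Oasl1 probe (0.93). Without background correction, or with that offset, Oas2 changed less than Oas1g and Oasl2. With the mean background subtracted and no offset it changed more (ratios of group means 11.4, 5.08 and 4.94, brightest probes). With only probes detected on all 6 arrays, 6 member probes and 3 member genes were tested and called, against 1957 of all 15045 probes called higher. Without a filter 12 of 16 member probes were called, against 1902 of all 45281. With a detection limit of 0.05 11 of 11 were, against 2309 of all 18948, and the Oas3 probe among them passed through the DAC arrays alone. Leaving out a DAC array left 7 tested and 7 called, since the filter still asks for 3 arrays. Of all probes, 1576 to 1918 were then called higher. Without normalization between arrays, 1266 probes were higher and 4224 lower, against 2220 and 2454 as reported. Pathway genes called higher numbered 2 with 75th percentile scaling (Oas1c added, adjusted p = 0.0431) and 1 to 2 when 1 array was left out (Pde12 passed without DAC replicate 2). Interferon input genes called lower numbered 1 (Ifnlr1) without normalization, with array weights and with the replicate block, and 0 to 1 when 1 array was left out. Ifna6 was called higher with 75th percentile scaling (adjusted p = 0.0311), with the replicate block (0.0341), with probes detected on all 6 arrays (0.0461) and without DAC replicate 1 (0.0488). Zbp1 was called higher with 75th percentile scaling (0.0377), with the block (just under the threshold) and without DAC replicate 3 (0.0221). With the replicate number as a block, 10 member probes were called higher and 0 lower. Over all probes, 2634 were higher and 2996 lower with this block. Deviations of same-numbered plates from their group means correlated at 0.31, 0.31 and −0.03. The labels do not say whether a shared number marks a shared batch. With the brightest or the mean probe fitted per gene, 5 member genes were called. Levels near background limit Oas1a, Oas3 and Oas1b, and untreated levels near background limit Oas2 and the dimmest Oasl1 probe.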
